A study of Homo sapiens with 14 samples.

Results

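Replication-dependent histone genes are the clustered genes that supply histones when DNA is copied. The members were all genes of the single-cell matrices whose symbol starts with HIST1H, HIST2H, HIST3H or HIST4H, which gave 71 of 36601 genes. They comprise 6 genes for the linker histone H1 and, for the core histones, 17 for H2A, 18 for H2B, 15 for H3 and 15 for H4. All 71 were also found in the bulk tables by Ensembl identifier. Of the 71, 55 lie on chromosome 6, 13 on chromosome 1 and 1 on chromosome 12, and 2 (HIST2H2AA3 and HIST2H2AA4) were not matched in GENCODE 44.

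The samples were cultures of SW620, a human colorectal cancer cell line from a lymph node metastasis, kept for up to 15 days without passage (long-term culture, LTC). Single-cell libraries were made on days 6, 9, 12 and 15 from SW620-FLAG, which carries an empty FLAG vector and is labelled only SW620, and from SW620-TET2CD, which overexpresses the catalytic domain of the DNA demethylation enzyme TET2. Bulk libraries came from day 15 of SW620 (whether with the FLAG vector is not stated) and SW620-TET2CD, with cells inside the colonies apart from those outside (a strainer held back the colonies), and on day 6 from SW620 and from SW480, a line from the primary tumour of the same patient. The cells inside and outside may come from the same culture. Each of these 14 conditions had 1 library, so the p-values measure the spread between libraries of different days or lines and not between repeat cultures.

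Kept cells numbered 3894 to 8154 per single-cell library, with 48186195 to 74185723 UMIs (unique molecular identifiers, 1 per captured transcript) and a median of 6640 to 13479 UMIs per cell. Bulk libraries held 16470176 to 25840563 expected counts. TET2 stood at 2.11 to 3.90 CPM (UMIs per 1000000) in SW620-FLAG and at 40.2 to 107 CPM in SW620-TET2CD. Of 8 epithelial markers, 7 exceeded 1 CPM in at least 1 library, and KRT20 stayed below 1 CPM in all 8 libraries. Pairs of libraries shared 11 to 31 cell barcodes, at most 0.440% of the smaller library.

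A dividing cell needs histones in step with the DNA it copies, and these genes are transcribed mainly in S phase under NPAT, which the cyclin E and CDK2 kinase activates. Their mRNAs typically end not in a poly(A) tail but in a conserved stem-loop, which is bound by SLBP, cut with the U7 snRNP and degraded when replication stops. Some members are also known to yield polyadenylated transcripts in cells that have left the cycle. The single-cell kit primes on poly(A), and the TruSeq RNA kit that the study names for bulk also selects poly(A) RNA. Both assays can therefore miss transcripts that end in the stem-loop. The part that either assay captured was not measured.

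The stem-loop is shown first because it is the element that these mRNAs share. A search for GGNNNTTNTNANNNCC on the sense strand within 150 bases after the stop codon found it in 69 of 69 members with a canonical coding transcript, 23 to 63 bases after the stop. The same search found it in 111 of 19600 protein-coding genes (0.566%), members included. In the sequences below, capitals mark the paired stem and lower case the loop. The first form occurred in 39 members of the H1, H2A, H2B and H3 families, the next in 10 H4 genes including HIST1H4C, and the next in 10 members including HIST1H2BD, HIST1H2BC and HIST1H2BK. The last belonged to HIST1H3E alone.
HIST1H1C, HIST1H2AC and 37 others: GGCUCUuuucAGAGCC
HIST1H4C and 9 others: GGCCCUuuucAGGGCC
HIST1H2BD and 9 others: GGCUCUuuuaAGAGCC
HIST1H3E: GGCUCUucucAGAGCC

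Members differed more in what follows the stem-loop. The copy in HIST1H2BD lies at chr6:26158587-26158602 (GRCh38, plus strand), 37 bases after the stop codon in the 3′ UTR. An AATAAA polyadenylation signal followed 13 bases after it in HIST1H2BD and in HIST1H1C, and 161 bases after it in HIST1H4C. Within 300 bases of the stem-loop, 7 of 69 members had that signal. In 13 of 69 members, GENCODE 44 lists a coding transcript that runs over 50 bases past the stem-loop. HIST2H2BE, for example, has a 3′ UTR of 1801 bases with the stem-loop 57 bases after the stop.

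H4 genes encode nearly a single protein, since 14 of the 15 members had an identical predicted product. The 15 H3 members encode 4 distinct proteins, the H2A members 10, the H2B members 14 and the 6 H1 members 6. In RefSeq promoters (250 bases before to 50 after the start, GRCh38.p14), 64 of 71 members were matched. CCAAT, searched on both strands, was present in all promoters of the H1, H2A, H2B and H3 families but in 3 of 13 H4 promoters, and in 34.6% of 35116 promoters overall. TATAAA on the sense strand occurred in 37 of 64 members (57.8%) against 7.33% of all promoters. ATGCAAA, the core of the octamer motif, occurred on either strand in 14 of 18 H2B and 11 of 14 H2A promoters against 4.46% overall. AAACACA occurred on either strand in all 6 H1 promoters against 5.64% overall. These are letter matches only, in windows that head-to-head neighbours partly share. HIST1H3D is listed with the window of HIST1H2AD, so its matches are those of the H2A gene.

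The summed histone level was lower in all 4 late single-cell libraries than in all 4 early ones. It was 1640 and 2374 CPM in SW620-FLAG on days 6 and 9, and 924 and 769 CPM on days 12 and 15. In SW620-TET2CD it was 1946 and 2047 CPM on days 6 and 9, and 1001 and 996 CPM on days 12 and 15. Late means were 0.422 times the early ones for SW620-FLAG and 0.500 times for SW620-TET2CD. Most of the sum came from HIST1H4C, an H4 gene with 64.5% of histone UMIs on early days and 50.1% on late days. Without HIST1H4C the ratios were 0.557 and 0.737. A sum over a culture, in these libraries and in the bulk ones, cannot tell fewer cells with histone transcripts from fewer transcripts per cell, which the counts per cell given further on address in part.

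**Figure D1:**
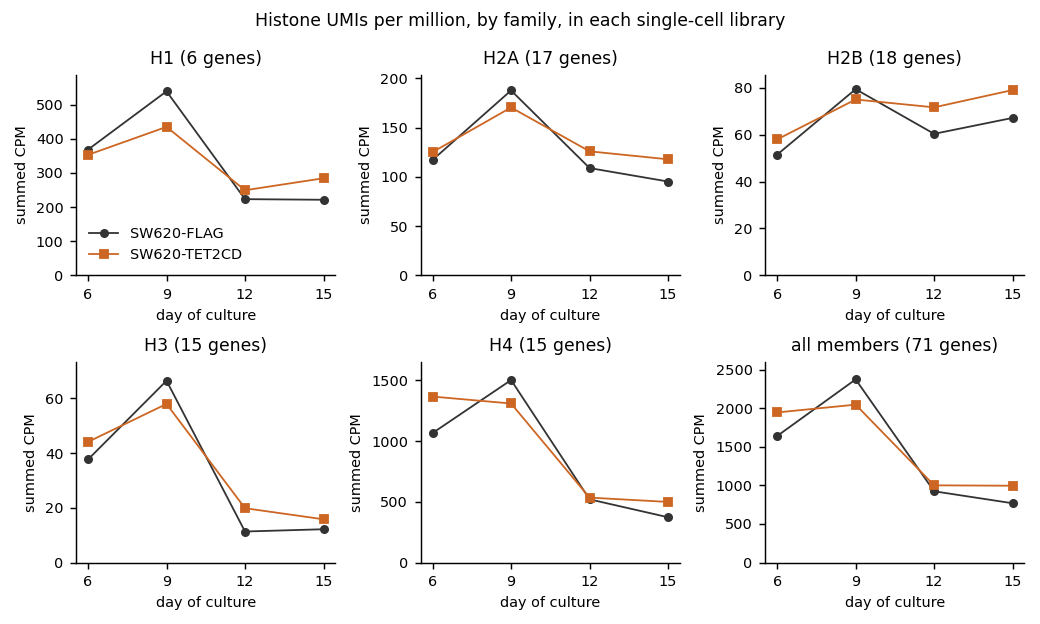
Summed CPM of each histone family (y axes from 0) against day of culture in the 8 single-cell libraries, 1 point per library, black circles for SW620-FLAG and orange squares for SW620-TET2CD. The H3 and H4 sums of days 12 and 15 lie below those of days 6 and 9 in both lines, while the H2B sums of the 4 late libraries (60.4 to 79.1 CPM) lie within the range of the early ones (51.5 to 79.5 CPM).

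The families did not move alike. H3 had the deepest difference, with 37.6 to 66.4 CPM early and 11.3 to 19.8 CPM late, a log2 ratio of -2.15 for SW620-FLAG and -1.52 for SW620-TET2CD. H4 stood at 1066 to 1502 CPM early and 373 to 534 CPM late. H1 stood at 353 to 539 CPM early and 221 to 284 CPM late. These 3 families did not overlap between early and late libraries. H2A overlapped, with 117 to 188 CPM early and 95.2 to 126 CPM late. H2B, with a log2 ratio of -0.04 for SW620-FLAG and 0.18 for SW620-TET2CD, overlapped almost completely.

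The study follows colonies over LTC, and the test of days 12 and 15 against days 6 and 9 used edgeR's quasi-likelihood test with the line as a block and Benjamini-Hochberg adjustment over 16526 genes. Of the 71 members, 57 passed the filter on low counts and 14 did not. Of the 57, 42 fell, 4 rose and 11 did not pass the threshold of 0.05. Over all genes 28.6% fell and 29.4% rose, so the members were called lower more often than the background and called higher less often. The median log2 fold change was -1.57 over the 57 members and 0.04 over all tested genes. The 14 untested members had 0 to 83 UMIs over all 8 libraries, and 6 of them had none (HIST1H2BA, HIST2H3A, HIST3H3, HIST1H4G, HIST1H4F and HIST1H4K).

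The size of the fall depended on the upper limits of the cell filter, 4500 genes or 20000 UMIs. On late days the 129 to 1588 barcodes per library above them held 986 to 1981 histone CPM, against 769 to 1001 CPM in the kept cells. On early days the 87 to 2012 such barcodes held 1790 to 2035 CPM, against 1640 to 2374 CPM in the kept cells. With no upper limits the median member log2 fold change was -0.98 and 38 members fell, and with every barcode it was -0.94 and 37 fell. In both settings 4 members rose. With upper-quartile scaling, which shifted the median of all genes to 0.21 and the share of higher among all calls from 50.7% to 63.2%, 38 members fell and 4 rose.

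**Figure D2:**
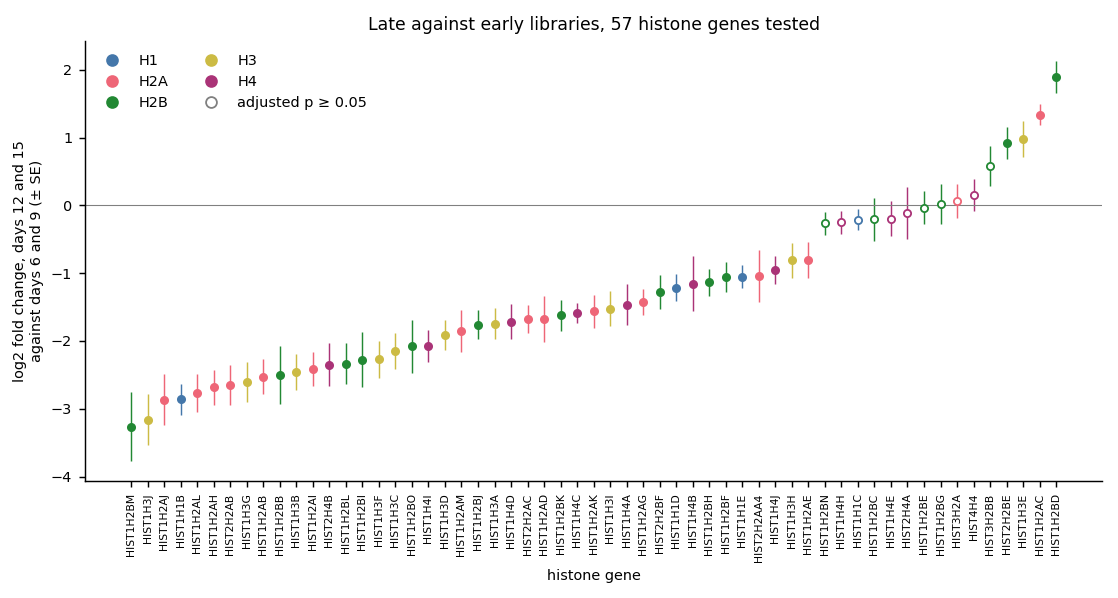
Log2 fold change of late (days 12 and 15) against early (days 6 and 9) libraries for the 57 histone genes tested, ordered by value and coloured by family; bars are ± 1 SE and open circles did not pass an adjusted p of 0.05. The 42 members that fell span -3.26 to -0.80, and the 4 that rose span 0.92 to 1.90. HIST3H2BB, which did not pass, lies next below them at 0.58 ± 0.30.

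Of the H1 genes, 3 of 4 tested fell. HIST1H1B, a linker histone gene tied to dividing cells, stood in SW620-FLAG at 108 CPM on day 6, 140 CPM on day 9, 14.3 CPM on day 12 and 10.6 CPM on day 15. The SW620-TET2CD libraries of those days had 95.4, 109, 24.3 and 19.97 CPM. All 4 late libraries lay far below the early ones, with a log2 fold change of -2.86 ± 0.22 (SE, adjusted p = 1.12e-05, edgeR). HIST1H1E fell by 1.05 ± 0.17 on the log2 scale, from 60.9 to 92.4 CPM early to 27.1 to 46.0 CPM late. HIST1H1C, on the list of members known to make polyadenylated transcripts, did not pass. In the order SW620-FLAG then SW620-TET2CD for the earlier day, then the same for the later day, which lists of all 4 early or all 4 late libraries follow, its values were 135, 138, 214.5 and 184 CPM early and 142, 150, 161 and 169 CPM late, with a log2 fold change of -0.21 ± 0.16 (adjusted p = 0.287, edgeR).

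Of the 15 H2A genes tested, 13 fell and 1 rose. HIST1H2AJ stood at 3.70, 4.12, 7.76 and 6.78 CPM in the early libraries and at 0.453, 1.47, 0.416 and 1.27 CPM in the late ones, and fell by 2.87 ± 0.38 on the log2 scale. HIST1H2AL fell by 2.77 ± 0.29 and HIST1H2AH by 2.69 ± 0.26. HIST2H2AC, the H2A member with most UMIs on early days, fell by 1.68 ± 0.20, from 37.2 to 65.4 CPM early to 13.1 to 24.4 CPM late. HIST1H2AC went the other way. It stood at 16.6, 15.5, 23.9 and 23.04 CPM early and at 51.7, 49.7, 54.2 and 58.7 CPM late, and rose by 1.34 ± 0.16 (adjusted p = 7.5e-05, edgeR). Every late library exceeded every early one for HIST1H2AC.

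H2B genes were called in both directions. Of 17 tested, 10 fell, 2 rose and 5 did not pass, beside a family sum whose early and late ranges overlapped. HIST1H2BD stood in SW620-FLAG at 4.95 CPM on day 6, 9.48 CPM on day 9, 25.9 CPM on day 12 and 30.7 CPM on day 15. The SW620-TET2CD libraries of those days had 5.32, 8.92, 22.3 and 35.5 CPM, so the late libraries of both lines exceeded all early ones. It rose by 1.90 ± 0.24 on the log2 scale (adjusted p = 0.000105, edgeR), the largest rise among the members. HIST2H2BE rose by 0.92 ± 0.24, from 2.18 to 4.24 CPM early to 4.54 to 8.97 CPM. Its groups did not overlap, but the gap was small. HIST1H2BC had 6.31 to 9.72 CPM early and 4.37 to 11.0 CPM late, a log2 fold change of -0.21 ± 0.32. HIST1H2BN had -0.26 ± 0.17. HIST1H2BK fell by 1.62 ± 0.23, from 1.96 to 3.47 CPM early to 0.719 to 1.47 CPM late.

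Of the 10 H3 genes tested, 9 fell and 1 rose. HIST1H3B fell by 2.45 ± 0.27 on the log2 scale, from 9.43 to 17.1 CPM early to 1.60 to 4.21 CPM late. HIST1H3G fell by 2.60 ± 0.29 and HIST1H3D by 1.91 ± 0.22. HIST1H3H fell by 0.81 ± 0.26 (adjusted p = 0.0212, edgeR), and this call was lost without any 1 of SW620-FLAG day 9, 12 or 15 or SW620-TET2CD day 15. HIST1H3E rose by 0.98 ± 0.27, from 0.461 to 0.992 CPM early to 1.33 to 1.82 CPM late.

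Of the 11 H4 genes tested, 7 fell and 4 did not pass. HIST1H4C stood at 1048, 1345, 1473 and 1282 CPM early and at 502, 513, 358 and 477 CPM late, and fell by 1.59 ± 0.14 (adjusted p = 2.12e-05, edgeR). HIST1H4E had -0.20 ± 0.25, with 4.796 to 11.0 CPM early and 6.64 to 9.15 CPM late. Near-identical copies make 2 pairs of H4 genes uncertain, because reads cannot always be assigned between HIST2H4A and HIST2H4B or between HIST1H4J and HIST1H4K. HIST2H2AA4 fell by 1.04 ± 0.38 (adjusted p = 0.0361, edgeR). It shares its sequence with HIST2H2AA3, which was not tested, and its call was lost without either day 9 or either day 15 library.

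The 4 members that rose all belonged to the 13 with an annotated coding transcript that runs past the stem-loop. Of these 13, 12 were tested, and 4 rose, 3 fell and 5 did not pass, with a median log2 fold change of 0.01. These shares and this median are near those of all tested genes (29.4% higher, 28.6% lower, median 0.04). Of the 56 members annotated to end at the stem-loop, 44 were tested, and 38 fell, none rose and 6 did not pass, with a median of -1.73. The list of 6 members known to make polyadenylated transcripts had 3 that rose (HIST1H2AC, HIST1H2BD and HIST2H2BE), 1 that fell (HIST1H2BK) and 2 that did not pass (HIST1H1C and HIST1H2BC). Its summed level was 167 to 264 CPM early and 230 to 282 CPM late. Most of that sum was HIST1H1C, with 135 to 214.5 CPM early and 142 to 169 CPM late. Members with AATAAA near the stem-loop did not stand apart, since 4 of 6 tested fell and 1 rose. These groupings were made with the calls known, and a 3′ end that is annotated was not observed to be used here.

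Calls also differed between some neighbours with a shared upstream region. GENCODE 44 places 13 pairs of members head to head with starts 170 to 979 bases apart, and both genes were tested in 12 of them. Over all 57 members tested, 73.7% fell and 7.02% rose, and whether pairs differ from unrelated members was not tested. Both genes fell in 7 pairs, only 1 gene was called in 3 pairs and neither in 1 pair (HIST3H2A and HIST3H2BB). In 1 pair the calls were opposite. That pair was HIST2H2BE, which rose by 0.92 ± 0.24, and HIST2H2AC, which fell by 1.68 ± 0.20. In the pair HIST1H2BC and HIST1H2AC, the first had -0.21 ± 0.32 and the second rose by 1.34 ± 0.16.

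The stretches between the starts of these 2 pairs are shown because each lies upstream of 2 genes whose calls differed. The first spans chr1:149886683-149886917 and the second chr6:26123927-26124144 (GENCODE 44 starts, sequence from RefSeq, GRCh38.p14), both printed on the minus strand, so that they read toward HIST2H2BE and HIST1H2BC. The second lies within an unnamed long locus that GENCODE 44 annotates on the plus strand. Capitals mark the motif TATAAA, the motif CCAAT and the motif ATGCAAA on either strand.
HIST2H2BE to HIST2H2AC: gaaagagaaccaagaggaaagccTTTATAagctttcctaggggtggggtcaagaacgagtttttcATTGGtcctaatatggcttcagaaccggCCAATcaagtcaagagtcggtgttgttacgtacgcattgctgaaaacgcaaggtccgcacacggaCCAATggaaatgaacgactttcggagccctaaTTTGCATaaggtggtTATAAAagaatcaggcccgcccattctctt
HIST1H2BC to HIST1H2AC: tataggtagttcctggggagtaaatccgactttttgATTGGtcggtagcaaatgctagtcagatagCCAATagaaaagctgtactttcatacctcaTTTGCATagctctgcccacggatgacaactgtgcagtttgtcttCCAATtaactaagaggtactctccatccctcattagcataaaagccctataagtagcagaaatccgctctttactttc
In the HIST2H2BE and HIST2H2AC stretch, TATAAA was found 1 time reading toward each gene, and the other stretch held no whole copy. The RefSeq promoter window of HIST1H2AC, which runs past that stretch toward the gene, held 1 TATAAA on the sense strand. In both stretches CCAAT was found 2 times reading toward the H2B gene and 1 time toward the H2A gene, and ATGCAAA 1 time toward the H2A gene.

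**Figure D3:**
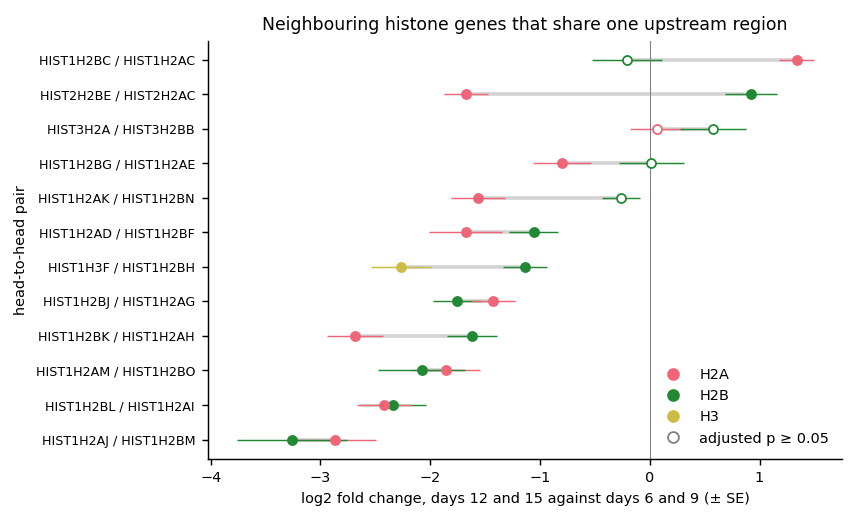
Log2 fold change of late against early libraries (x axis, bars ± 1 SE) for both genes of the 12 head-to-head pairs tested (y axis), coloured by family, with open circles where the adjusted p was 0.05 or more. Both genes fell in the lower 7 pairs, while HIST2H2BE and HIST2H2AC lie on opposite sides of 0.

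Other genes of the histone pathway were read from fixed lists in the same test. Of 17 genes for 3′ end processing and decay, 12 fell, 1 rose and 4 did not pass. SLBP, the stem-loop binding protein, fell by 1.46 ± 0.16 on the log2 scale, from 102 to 149 CPM early to 42.6 to 60.3 CPM late, and the U7 snRNP protein gene LSM10 fell by 0.81 ± 0.15. LSM11 had -0.21 ± 0.18. TUT7, a uridylyltransferase of histone mRNA decay, rose by 0.90 ± 0.15. Of 9 genes for transcription, 6 fell, 1 rose and 2 did not pass. The cyclin genes CCNE1 and CCNE2 fell by 2.60 ± 0.22 and 2.67 ± 0.36, and E2F1 fell by 3.01 ± 0.27. NPAT, the coactivator of histone gene transcription, did not pass, with 14.2 to 18.6 CPM early and 18.4 to 27.1 CPM late and a log2 fold change of 0.23 ± 0.14.

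Of 13 histone chaperone genes, 12 fell and none rose. ASF1B, an H3-H4 chaperone, fell by 3.16 ± 0.23 on the log2 scale. The CAF-1 subunit genes CHAF1A and CHAF1B, whose complex loads histones onto copied DNA, fell by 2.73 ± 0.19 and by 2.56 ± 0.22. HIRA and DAXX, chaperones of replication-independent deposition, fell by 0.99 ± 0.12 and 0.91 ± 0.10, and ATRX had 0.25 ± 0.12. Of 12 replication-independent histone genes, 6 fell, 1 rose and 5 did not pass. H3F3A and H3F3B, which encode H3.3, had -0.17 ± 0.15 and -0.23 ± 0.14, whereas 9 of 10 clustered H3 genes fell. H1F0, a linker histone of resting cells, rose by 1.35 ± 0.13, from 79.7 to 119 CPM early to 254 to 296 CPM late. CENPA fell by 2.36 ± 0.24, H2AFX by 2.13 ± 0.18 and H2AFZ by 1.54 ± 0.17. All 18 genes of an S-phase list and all 14 of a mitotic list fell, with medians of -2.77 and -2.41. In the comparisons of the lines, of the lines over time and of the locations, no gene of these 6 lists was called. Of all genes tested, 4.21%, 0% and 0% were called in these comparisons.

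Markers of other cell types were checked beside these falls. Among leukocyte markers, CD68 rose from 1.20 to 1.88 CPM early to 3.61 to 36.9 CPM late, while PTPRC and CD3E stayed at or below 0.0591 CPM. The 5 fibroblast markers summed to 1.53 to 1.94 CPM early and 2.30 to 4.06 CPM late, and of 3 tested, COL1A1 rose by 0.76 ± 0.22 and DCN by 2.45 ± 0.65 on the log2 scale. The 3 endothelial markers summed to 0.379 to 1.39 CPM early and 0.454 to 1.23 CPM late, and of 2 tested, VWF rose by 1.065 ± 0.40. VWF and DCN stayed at or below 0.664 CPM in every library, with CDH5, COL1A2 and COL3A1 at 0 in at least 5 libraries. The part of cells bearing these markers in the histone results was not tested.

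Histone transcripts were then counted per cell. Every kept cell was thinned to 2000 UMIs, which left out 18 to 89 shallower cells per library. The mean number of histone UMIs per thinned cell was 3.01 and 4.36 in SW620-FLAG on days 6 and 9 and 1.84 and 1.54 on days 12 and 15. In SW620-TET2CD it was 3.59 and 3.72 early and 1.93 and 1.97 late. Cells with 10 or more histone UMIs made up 5.44%, 8.67%, 16.1% and 12.3% of cells in the early libraries and 0.870%, 1.99%, 0.792% and 1.82% in the late ones.

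The share of thinned cells with any histone UMI was 78.3%, 82.2%, 83.6% and 80.3% in the early libraries and 78.0%, 76.9%, 69.1% and 77.3% in the late ones. The exact 95% binomial interval was 68.0% to 70.2% for the lowest (SW620-FLAG day 15) and 82.7% to 84.4% for the highest (SW620-FLAG day 9), for counting error only. The mean difference was -5.75 points (exact permutation of days within lines, two-sided, p = 0.0556, 36 arrangements, the smallest p they allow). Without SW620-FLAG day 15 it was -3.55 points. With cells thinned to 4000 UMIs it was -1.29 points (exact permutation p = 0.5), with shares of 91.9% to 93.9% early and 87.8% to 94.5% late. With unthinned cells it was -0.12 points (exact permutation p = 0.944), with 97.0% to 98.8% early and 95.3% to 99.5% late. Early and late libraries thus overlapped in both settings, where shares this high leave little room for a difference. No group of cells known to lack histone transcripts was set apart, so the share that free RNA gives was not measured.

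Cells were parted into classes by genes other than histones. A thinned cell with at least 3 UMIs of the 18 S-phase genes, and more than of the mitotic genes, was called an S-list cell, and one with at least 3 UMIs of the 14 mitotic genes otherwise an M-list cell. In SW620-FLAG the share of S-list cells was 42.3% on day 6, 32.0% on day 9, 3.51% on day 12 and 1.86% on day 15. The SW620-TET2CD shares on those days were 37.2%, 35.5%, 7.84% and 3.05%. Early and late libraries did not overlap (mean difference -32.7 points, exact permutation p = 0.0556, the smallest possible). With a minimum of 5 list UMIs the difference was -18.9 points. In unthinned cells the late shares were 9.27% to 27.7% and the early ones 45.9% to 60.3%. With no upper limits on cells, the day 12 shares were 7.25% for SW620-FLAG and 13.0% for SW620-TET2CD. These classes are ranges of a count, and 267 to 1973 cells per library had 2 or 3 UMIs of their larger list, next to the limit. Cells of neither class made up 24.4% to 35.3% of thinned cells early and 84.3% to 93.8% late. In unthinned cells they made up 6.35% to 15.8% early and 57.9% to 83.5% late. Many cells of neither class, early and late, thus reached a list limit before thinning.

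S-list cells held more histone UMIs than cells of neither class in all 8 libraries. In early libraries they held 3.64 to 5.70 UMIs per cell against 1.67 to 2.41. In late libraries they held 2.92 to 3.89 against 1.41 to 1.75. By family, in CPM of these cells before thinning, S-list exceeded neither in all 8 libraries for H1, H2A, H3 and H4. For H2B it did so in 5, with an early ratio of 1.28 against 2.12 for H4. Within S-list cells the late level was lower by 1.30 UMIs on average (exact permutation p = 0.0556). With no upper limits on cells that difference was -0.62 (exact permutation p = 0.611), with a minimum of 5 list UMIs -0.74 (p = 0.333), and without SW620-FLAG day 9 -0.79. In M-list cells the level was 3.29 to 4.99 early and 3.79 to 5.44 late, and these ranges overlapped. M-list cells also held more than cells of neither class in all 8 libraries. They held less than S-list cells in every early library but more in every late one, for instance 5.44 against 3.89 in SW620-TET2CD on day 15. The late S-list and M-list classes were small, with 127 to 304 and 122 to 304 cells per library.

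**Figure D4:**
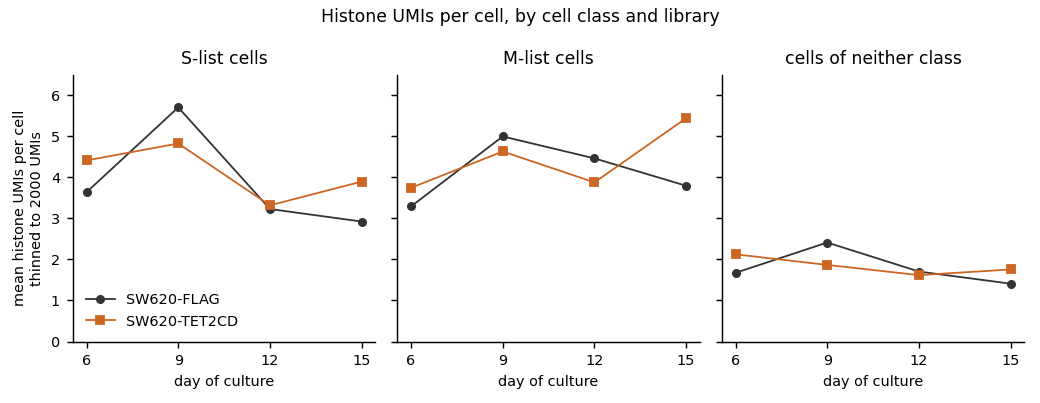
Mean histone UMIs per cell thinned to 2000 UMIs (y axis) against day of culture, in S-list cells, M-list cells and cells of neither class, 1 point per library. Cells of neither class sit at 1.41 to 2.41 in every library, below the S-list and M-list cells of the same library.

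Since S-list cells were rare on late days, they held 3.53% to 13.5% of histone UMIs there against 41.8% to 51.0% early. In unthinned cells they held 13.1% to 32.8% late and 52.3% to 66.1% early, and with no upper limits on cells 3.12% to 22.6% late. As arithmetic, class shares and class levels were each averaged over the 2 days and multiplied. In SW620-FLAG, early shares with early levels gave 3.71 histone UMIs per cell, late with late 1.69, late shares with early levels 2.19 and early shares with late levels 2.97. The same products in SW620-TET2CD were 3.69, 1.97, 2.27 and 3.39. These products rest on the classes of thinned cells, and the part of cells that thinning moved between classes was not tested. Free RNA can add UMIs of both lists and of histones to any cell, and its part was not tested.

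Single members differed by class. HIST1H1B in SW620-FLAG was at 145 CPM in S-list cells and 41.0 CPM in cells of neither class on day 6, and at 74.4 and 3.58 CPM on day 15. In cells of neither class its mean over libraries was 44.3 CPM early and 4.87 CPM late, a ratio of 0.110. Its mean was 116 CPM early and 131 CPM late in M-list cells, and 160 and 104 CPM in S-list cells. HIST1H4C in those cells had a mean of 719 CPM early and 378 CPM late, and HIST1H1C 120 and 146 CPM. On early and late days this class includes cells that thinning moved into it, so it is not a class of resting cells. Their part in these differences was not tested.

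HIST1H2BD and HIST1H2AC had the reverse order of classes. HIST1H2BD was lower in S-list cells than in cells of neither class in all 8 libraries, for instance 8.50 against 32.9 CPM in SW620-FLAG on day 15 and 5.56 against 38.2 CPM in SW620-TET2CD on day 15. HIST1H2AC was also lower in S-list cells in all 8 libraries, with means of 15.6 against 22.5 CPM early and 17.4 against 56.9 CPM late. HIST1H3E, a gene of few UMIs, was lower in S-list cells in all 8 libraries as well. So was HIST3H2A, which did not pass the late against early test, with means of 18.4 against 24.9 CPM early and 15.9 against 24.8 CPM late. Within cells of neither class, HIST1H2BD had 5.42 to 11.9 CPM early and 24.6 to 38.2 CPM late, so its groups did not overlap there.

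SW620-TET2CD was compared with SW620-FLAG with day as a block. Of the 57 members tested none was called, against 4.21% of all genes in either direction (edgeR quasi-likelihood, Benjamini-Hochberg), and 2 had an unadjusted p under 0.05. These were HIST1H4J at 0.41 ± 0.18 and HIST1H2BK at 0.41 ± 0.18 on the log2 scale. DESeq2 called none and had 3 at an unadjusted p under 0.05. The members' log2 fold changes ran from -0.24 to 0.57 with a median of 0.19, against a median of 0.00 over all genes. HIST1H4C was lower in SW620-TET2CD on day 9 (1282 against 1473 CPM) and higher on the other days. Leaving out SW620-FLAG day 9 moved the median to 0.31 and leaving out SW620-TET2CD day 9 also to 0.31, with 11 members at an unadjusted p under 0.05 each and none called. It moved to 0.09 to 0.10 without any 1 library of day 12 or 15.

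The sign of the difference varied with the day. Of the 57 members, 46 were higher in SW620-TET2CD on day 6, 14 on day 9, 52 on day 12 and 52 on day 15. Among all tested genes 51.2%, 65.4%, 54.3% and 72.7% were higher on these days. The median log2 ratio of the members was 0.21, -0.09, 0.54 and 0.75. These shares are a description of 1 library against 1 library on each day.

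Whether the late fall differed between the lines was tested as an interaction. No gene passed (0% of 16526 genes, with 130 at an unadjusted p under 0.05), and none of the 57 members did, although 4 had an unadjusted p under 0.05 (adjusted p = 1.00 for each, edgeR). DESeq2 called none either and also had 4. HIST1H1B had a late to early log2 ratio of -3.31 for SW620-FLAG and -2.20 for SW620-TET2CD, an interaction of 1.02 ± 0.29. HIST1H2AJ had -3.72 and -1.99, an interaction of 1.63 ± 0.57. The members' median interaction was 0.48, and it was 0.14 without SW620-FLAG day 9, 0.80 without SW620-FLAG day 6 and 0.73 without SW620-TET2CD day 9.

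Bulk libraries gave TPM (transcripts per 1000000, a level per length), and there the order of members was different. The summed level was 871 TPM in SW620 on day 6, and 1582 TPM in SW480 on the same day. On day 15 the SW620 libraries held 505 TPM (inside) and 491 TPM (outside), and the SW620-TET2CD libraries 484 TPM (inside) and 291.5 TPM (outside). H2B genes made up 44.7% to 53.6% of the sum and H4 genes 7.49% to 21.6%. HIST1H2BK led with 607 TPM in SW480, 277 TPM in SW620 on day 6, then 181 and 158 TPM in the day 15 SW620 libraries and 144 and 86.5 TPM in the SW620-TET2CD ones, inside first. HIST1H1C followed with 186, 86.1, 44.9, 40.5, 30.6 and 18.0 TPM in the same order. The 4 members that rose with time in the single-cell test are given from SW620 on day 6 onward. HIST1H2BD had 39.3, 26.9, 28.9, 30.3 and 15.0 TPM and HIST2H2BE 26.5, 18.2, 20.2, 20.25 and 14.0 TPM. HIST1H2AC had 25.6, 36.5, 33.9, 52.3 and 20.6 TPM and HIST1H3E 3.83, 3.88, 3.32, 3.03 and 1.93 TPM. HIST1H2BD and HIST2H2BE thus stood lower in every day 15 bulk library than on day 6, which was not tested.

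HIST1H4C, first of the members in the single-cell data with a mean of 875 CPM, ranked 28 in bulk with a mean of 2.15 TPM. HIST1H1B had a mean of 65.2 CPM and 0.687 TPM. HIST1H2BK, first in bulk with a mean of 242 TPM, had a mean of 2.00 CPM. HIST1H1C, HIST1H2AC, HIST1H2BD and HIST3H2A were among the 9 highest in both. The 6 members of the polyadenylated list held 53.3% to 61.7% of the histone TPM and 8.83% to 34.1% of the histone UMIs. CPM and TPM came from different kits and counting, so these values are given side by side and were not tested against each other. Both kits select poly(A) RNA, so neither order of members is a measure of all histone mRNA.

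**Figure D5:**
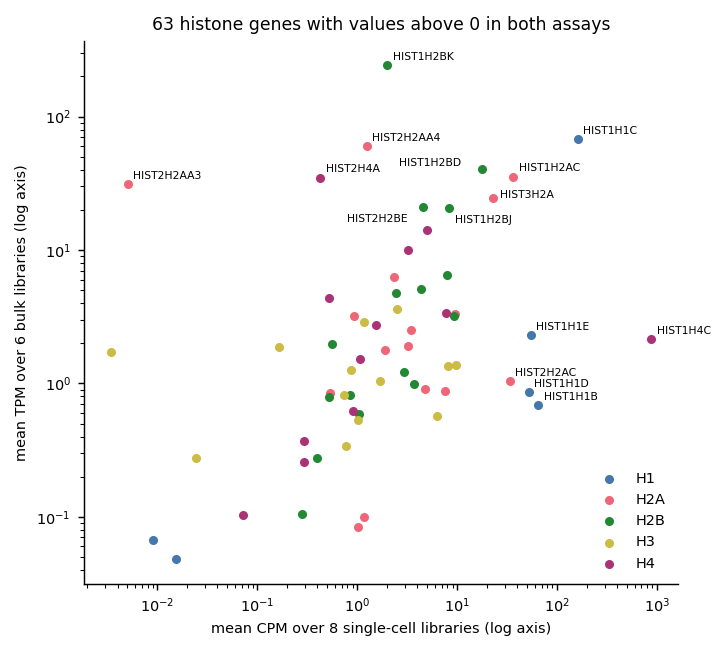
Mean TPM over the 6 bulk libraries against mean CPM over the 8 single-cell libraries for the 63 members above 0 in both (both axes logarithmic), coloured by family, with the leading members of each assay named. HIST1H4C, HIST1H1B, HIST1H1D and HIST1H1E lie to the right and low, HIST1H2BK lies high, and HIST1H1C is near the top in both.

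Paralog copies limit some bulk values. HIST2H2AA4 had 198, 77.2, 40.4, 35.6, 7.06 and 3.12 TPM in the order given above, while HIST2H2AA3 had 72.8, 62.4, 0, 7.31, 22.3 and 22.3 TPM. RSEM divides reads between such copies, so their sum is firmer than either value. HIST2H3A and HIST2H3C were listed at equal values in every library. HIST1H4C lies within the span of HIST1H2BC on the opposite strand, and the sources do not state whether the bulk counting used strand, so reads of overlapping genes cannot be told apart.

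Cells outside and inside the colonies were compared over both lines with the line as a block, which leaves 1 residual degree of freedom. No gene passed (0% of 17722 genes by edgeR, with 1068 at an unadjusted p under 0.05), and DESeq2 called 13 higher and 10 lower. Of the 71 members, 35 passed the filter on low counts, none was called and none had an unadjusted p under 0.05. Of the members, DESeq2 called none and had 1 at an unadjusted p under 0.05. The median log2 fold change was -0.35 against 0.01 over all genes, and 28 of the 35 were negative. In the same fit the S-phase list had a median of 0.59 and the mitotic list of 1.08, opposite in sign to the members. No gene of either list was called. HIST1H2AC had 36.5 TPM (inside) and 33.9 TPM (outside) for SW620, then 52.3 and 20.6 TPM for SW620-TET2CD, a log2 fold change of -0.75 ± 0.32 (adjusted p = 0.772, edgeR). HIST1H2BD had 26.9 and 28.9 TPM, then 30.3 and 15.0 TPM. The fold between locations was thus small in SW620 and larger in SW620-TET2CD, with summed ratios of outside to inside of 0.971 and 0.603, and that difference has no replicate.

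SW480 and SW620 on day 6 had 1 library each and no test. The summed level in SW480 was 1.82 times that in SW620, with 2.00 times for H1, 1.76 times for H2A, 2.02 times for H2B, 0.777 times for H3 and 1.26 times for H4. HIST2H2BE was alike in both (26.6 and 26.5 TPM), and HIST1H3B had 2.14 TPM in SW480 and 5.22 TPM in SW620.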

How the data were processed

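Single-cell matrices were deposited as UMI counts per gene and cell barcode, made with Cell Ranger 4.0 against GRCh38 per the labels. For bulk RNA-seq the authors deposited RSEM expected counts and TPM values per gene (Bowtie and RSEM per the labels). The notes for bulk list mm10, but the tables hold human Ensembl identifiers, so the build is uncertain and no bulk coordinate was used.

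Kept cells had between 200 and 4500 genes, between 1000 and 20000 UMIs, and no more than 10% of UMIs from mitochondrial genes, the limits of the study. Doublets were not called. UMIs were summed per library and tested with edgeR 4.0.16 (filterByExpr, TMM, quasi-likelihood, two-sided) in R 4.3.3. P-values were adjusted over every gene tested by the Benjamini-Hochberg method. Bulk expected counts were rounded to whole numbers. DESeq2 1.42.0, other scaling, filters and blocks, and leaving out libraries were alternatives. SE is the log2 fold change divided by the root of F. The scripts were tested on simulated data. Cells were thinned without replacement by hypergeometric draws. Shares carry exact (Clopper-Pearson) 95% intervals.

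Named members were the 5 highest rises and 5 deepest falls among called members with a mean of at least 2 CPM, the 2 highest of each family in each assay, and the polyadenylated list; other members were named after their values were seen. The members and lists were chosen with earlier results of these data known. Positions are from GENCODE 44 and RefSeq.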

Additional observations from a re-analysis of the deposited data

How the results depend on the processing

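The counts of members called higher and lower on late days were 4 and 42. In every alternative run 4 were higher. Lower were 44 with DESeq2, 44 with no filter on low counts, 42 with no block, 38 with upper-quartile factors, 38 with no upper limits on cells, 37 with every barcode, and 39 to 43 without 1 library (4 to 4 higher). With no filter on low counts, 1 member (HIST1H3G) was called between the lines and 1 (HIST1H2AC) between locations in bulk, where none was called otherwise. Leaving out a library called no member between the lines or in the interaction (0 to 0). Without 1 library, the difference in S-list cells ranged from -35.2 to -30.1 points, that in histone UMIs per S-list cell from -1.82 to -0.79, and that in histone-positive cells from -7.96 to -3.55 points. The first was -18.9 points with a minimum of 5 list UMIs. Over all genes, calls between the lines were 391 higher and 305 lower, 42 and 4 with no block, and 758 and 731 with no filter. With no filter, 8 genes were higher and 7 lower in the interaction and 285 and 187 between locations, where edgeR otherwise called none. Bulk could not be refitted without 1 library, since no residual degree of freedom remained. The blocks used were the line or the day. Members under about 1 CPM rest on few UMIs, and 3 UMIs correspond to 0.0404 to 0.0623 CPM in a library.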
